A study of Mus musculus with 4 samples.

Results

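The epithelial junction and polarity genes are 36 of the 32285 genes in the count files, matched by gene symbol, and all 36 were found. They comprise 8 claudins, 4 other tight junction membrane proteins, 6 proteins of the tight junction plaque, 6 polarity genes, 5 adherens genes with Epcam among them, 5 desmosome genes and the splicing factors Esrp1 and Esrp2. They were followed in sorted cells of embryonic mouse lung, in 4 single-cell libraries, 2 labelled Cre control and 2 labelled Myrf mutant. The question addressed was which junction parts control mesothelium carries and which of them are lower in mutant cells that still hold RNA of Wt1, a transcription factor of mesothelium.

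Per the labels, the matings joined Myrf Fl/Fl;R26TdTomato/R26TdTomato mice with Wt1creERT2;Myrf Fl/Fl mice, tamoxifen was injected into the dams at E12.5, and lungs were taken at E16.5. Wt1creERT2 is a tamoxifen-activated Cre driven from Wt1, so tdTomato marks cells that had Wt1 when tamoxifen acted, and their descendants. Mutant libraries came from embryos with Myrf deleted by this Cre, and control libraries from Cre-positive controls, whose Myrf alleles the labels do not give. For each genotype 3 to 5 lungs were combined, embryos were assigned to genotypes by lung and cell shape with a later PCR, and live tdTomato-positive cells were collected. The labels call all of them mesothelial cells, and they do not say whether the libraries of 1 genotype came from separate pools, so p-values measure only the spread between these libraries.

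Mesothelium is the flat epithelium that covers the lung and lines the body cavity. Epithelial cells are held together at their upper border by tight junctions, whose claudins and JAM proteins meet across the gap and are tied to actin by plaque proteins such as ZO-1 and cingulin. Below them adherens junctions join cadherins to catenins and desmosomes join desmogleins and desmocollins to keratin filaments, while the Par and Crumbs complexes and their opponent Lgl set which side of the cell is the upper one.

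After filtering, 281 and 3503 control cells and 411 and 4275 mutant cells remained, with 8175944 to 80755665 UMIs (counted RNA molecules) per library. In the order control 1, control 2, mutant 1 and mutant 2, which is used for every series of 4 values here, the median was 29175, 14322, 38719 and 15957 UMIs per cell, so the libraries numbered 1 hold few but deep cells. At most 4 cell barcodes were shared by any 2 libraries. A cluster of 2062 cells, 2041 of them from control 2, had most of the cell type markers near the mean of its library and is called mixed. Clusters named mesothelial-like, from Upk3b, Aldh1a2, Lrrn4 and other markers, held 113 and 738 control cells but only 3 and 3 mutant cells. Cells of mutant 1 lay mostly in a cluster led by Des, Tnnt2, Actc1 and Tagln (3, 24, 262 and 1478 cells). Most of the smooth muscle markers and 4 of the 7 cardiomyocyte markers defined it. Cells of mutant 2 lay mostly in this cluster and in an unnamed cluster led by Tcf21 (58, 216, 33 and 1492 cells). Another unnamed cluster, led by Ibsp, Lef1 and Pdgfra, held 29, 206, 57 and 831 cells. Barcodes with at least 2 UMIs of Epcam, an adhesion protein of many epithelia, numbered 10, 58, 18 and 66. They were left out of the tests except where a value is said to keep them in, and Epcam itself was not tested.

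In control mesothelial-like cells 14 of the 36 genes reached 20 CPM (UMIs scaled to 1 common total for every library and cell class) in both control libraries, the level used here to call a gene carried. The same 14 were found when the 36 genes were left out of the clustering. Genes are not ranked by CPM here, as a UMI library reads each transcript once near its end, and values are compared between libraries. The 20 CPM rule still sets 1 cut for every gene, so which genes count as carried is a convention. Among the tight junction membrane proteins, Cldn15, a pore-forming claudin, was the carried claudin (93.2 and 86.2 CPM in the 2 controls), and F11r, which encodes JAM-A, was the other carried gene (174 and 144 CPM). No other claudin and none of the other tight junction membrane proteins Ocln, Marveld2 and Marveld3 was carried by this rule. In the plaque, Tjp1, which encodes ZO-1, stood at 132 and 116 CPM, cingulin (Cgn) at 33.6 and 23.7, the cingulin-like gene Cgnl1 at 60.3 and 42.4, and the scaffold gene Magi1 at 81.8 and 61.6. Each of the 3 parts of the Par complex had a carried gene. These were the scaffold Pard3 at 67.2 and 60.9 CPM, Pard6b at 63.1 and 59.9, and the kinase Prkcz at 27.5 and 24.9. The cytoplasmic catenins were all carried, with Ctnnb1 at 196 and 217 CPM, Ctnna1 at 273 and 230, and Ctnnd1 at 141 and 91.3. Of the desmosome, desmoplakin (Dsp) at 35.1 and 32.3 CPM and plakoglobin (Jup) at 36.4 and 45.9 were carried. Reaching 20 CPM was not particular to mesothelium. In control cells without a Wt1 UMI and with under 2 Epcam UMIs, Ctnnb1 (218 and 213), Pard3 (79.2 and 55.1) and Ctnnd1 (188 and 93.2) were about as high. Tjp1, Ctnna1, Jup, Cgnl1, F11r and Magi1 also passed 20 CPM there in both controls. Cldn15 (2.96 and 25.3), Pard6b (3.25 and 14.0) and Prkcz (4.43 and 8.57) did not. Neither did Cgn (3.84 and 5.74) or Dsp (5.62 and 5.12).

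Prkcz and Cgn lay just inside the 20 CPM rule, and just outside it were Dsg2, the desmosomal cadherin desmoglein 2, at 30.04 and 19.2 CPM and the Lgl family gene Llgl2 at 21.0 and 15.3. The P-cadherin gene Cdh3 stood at 16.2 and 17.9 CPM, and 8 more genes lay between 2 and 20 CPM in at least 1 control library (Pard6g, Patj, Cldn1, Cldn3, Cldn10, Dsc2, Pkp2 and Esrp2). Of these 8, Pard6g, a second Par6 gene, stood nearest the rule, at 19.4 and 17.6 CPM. A further 10 genes were under 2 CPM in both controls. They were Cldn4, Cldn6, Cldn7, Cldn23, Ocln, Tjp3, Marveld2, Marveld3, Crb3 and Esrp1, many of which are used by lung epithelium. The E-cadherin gene Cdh1, not one of the 36, was near 0 in the Wt1-positive cells described next, at 1.59, 1.62, 0.547 and 0.175 CPM.

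The mesothelial-like cells were not uniform in their claudins. Their smaller cluster, led by Col6a5, Igfbp3 and Osr1 (7 and 67 Epcam-low control cells), held Cldn3 at 44.1 and 76.7 CPM, against 3.50 and 4.19 in the larger cluster led by Col4a4 and Upk3b (102 and 663 cells). Cldn10 was at 28.1 and 23.4 CPM in the smaller cluster against 1.89 and 5.10. Cldn15 went the other way, at 56.2 and 47.5 CPM against 95.6 and 90.5, as did Magi1 at 28.1 and 27.9 against 85.4 and 65.3. Both libraries showed each of these differences, which are a description, as the clusters were made from the same cells.

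**Figure D1:**
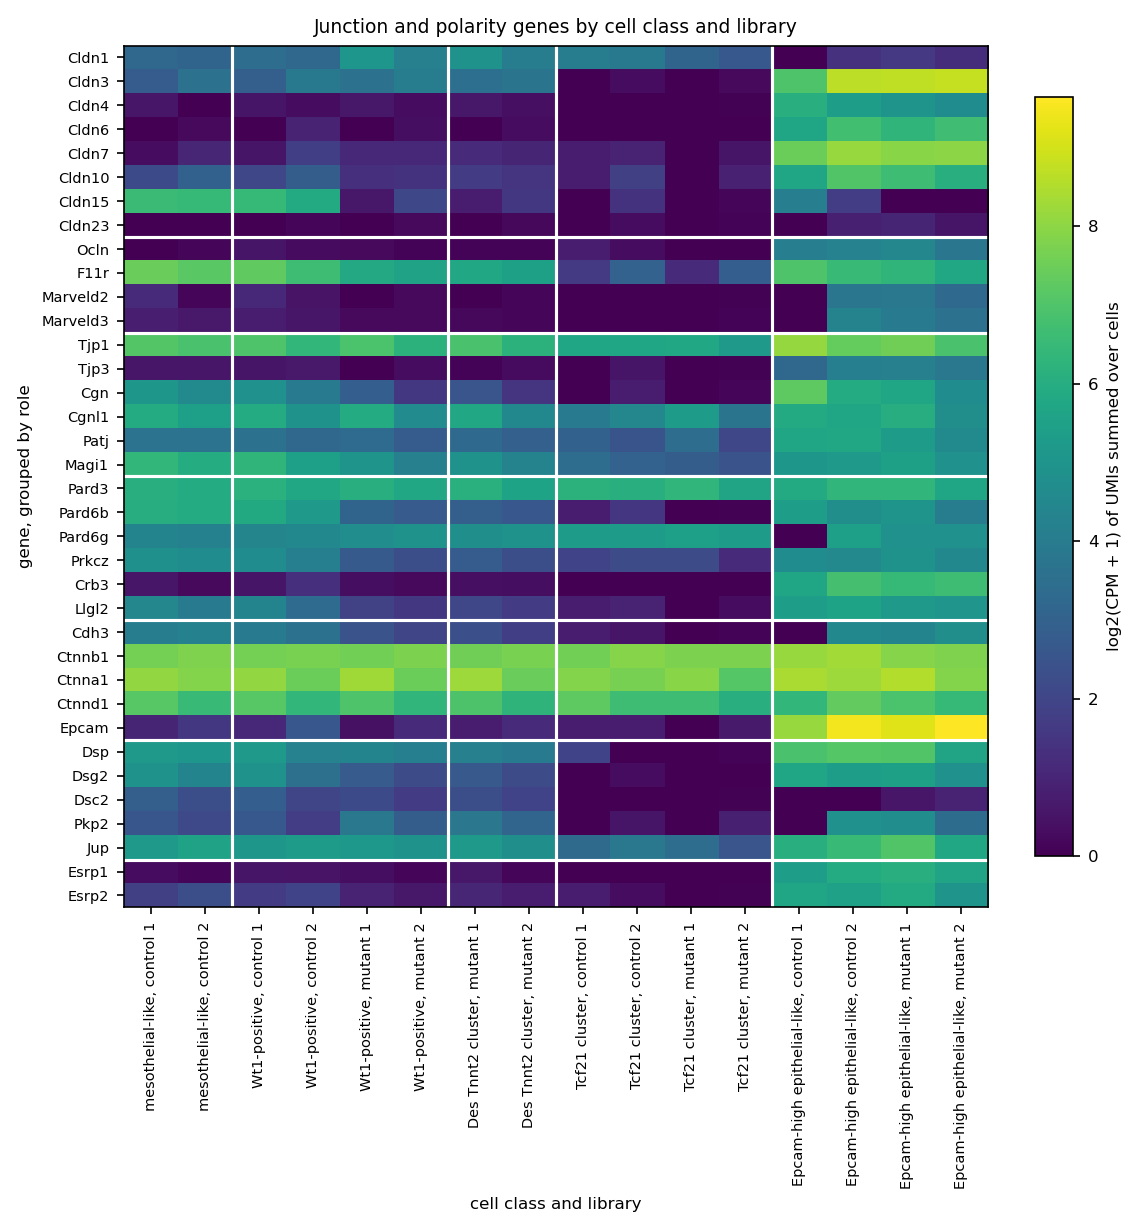
Level of each of the 36 genes, as log2(CPM + 1) of the UMIs summed per library, with genes in rows by role and cell classes in columns by library. The control mesothelial-like columns share a set with the Wt1-positive control columns (F11r, Cldn15, the Par genes, plaque and catenins), while Cldn4, Cldn6, Cldn7 and Crb3 are seen in the Epcam-high epithelial-like columns.

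The main comparison took cells with at least 1 Wt1 UMI and 0 or 1 Epcam UMI, which were 125, 1861, 175 and 658 cells. They made up 46.1, 54.0, 44.5 and 15.6% of all Epcam-low cells, and held 4395809, 33335829, 10976276 and 17165544 UMIs. Of these cells 84.0 and 34.5% were mesothelial-like in the controls, against 1.71 and 0.304% in the mutants, while 92.0 and 81.0% of the mutant cells lay in the Des and Tnnt2 cluster. In control 2, 56.7% of them lay in the mixed cluster. The comparison therefore sets cells that still hold Wt1 RNA against each other whatever else they have become, and fewer cells of a type and less RNA per cell cannot be told apart in it.

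The targeted gene was checked first. Myrf, a membrane-bound transcription factor, was at 128, 65.4, 26.1 and 15.3 CPM in the Wt1-positive cells. Both mutant libraries lay below both controls, and the log2 change was -2.18 ± 0.36 (standard error, n = 2 against 2 libraries; edgeR quasi-likelihood test, Benjamini-Hochberg adjusted p = 0.0312). RNA remained in both mutant libraries, and whether it came from the deleted allele is not known from counts per gene. Wt1 itself, used to choose the cells, stood at 144, 134, 44.5 and 63.0 CPM. The mesothelial surface gene Upk3b stood at 1654, 899, 14.9 and 26.0 CPM (log2 change -5.88 ± 0.54, edgeR adjusted p = 0.0078), and mesothelin (Msln) at 137, 81.0, 87.6 and 41.6 (log2 change -0.73, edgeR adjusted p = 0.43).

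Of the 36 genes 26 could be tested, and the other 10 were left out for low counts or, for Epcam, by the choice of cells. Cldn15, Pard6b, Prkcz, Llgl2 and Cdh3 fell in mutant cells and no gene rose, at an adjusted p under 0.05 over all 14260 genes tested (edgeR, Benjamini-Hochberg). The background was 2.2% of all genes lower and 0.968% higher. By role, the falls were 1 of 5 tested claudins, 3 of 5 polarity genes and 1 of 4 adherens genes, with 0 of 1 tight junction membrane proteins, 0 of 5 plaque genes, 0 of 5 desmosome genes and 0 of 1 splicing factors. The median log2 change of the 26 genes was -0.54, against 0.015 over all genes tested. Both mutant libraries lay below both controls for 11 of the 26 genes, where 21.5% of all genes did, and above them for 3, where 19.8% did. At an unadjusted p under 0.05 there were 13 of 26, and 15.9% of all genes. Leaving out 1 library gave 7 falls without control 1 or mutant 2 and 9 without control 2 or mutant 1, and 2 rises, of Cldn1 and Pkp2, without control 1 or mutant 2; without the mixed barcodes there were 8 falls and 1 rise. Of the 14 genes carried by control mesothelium 3 fell (Cldn15, Pard6b and Prkcz), and the median log2 change of the 14 was -0.33. The 14 were chosen by their level in control cells, many of which are also in this comparison. Their falls are thus a description and no separate support.

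Cldn15 showed the largest change of the 26. It is a protein-coding gene (ENSMUSG00000001739) on the plus strand of chromosome 5, from 136966616 to 136975858 in mm10. Its level was 86.0, 58.6, 0.547 and 3.26 CPM, from 378, 1955, 6 and 56 UMIs. Both controls lay far above both mutants, and 6 UMIs are few for the lower mutant value. The log2 change was -5.06 ± 0.66, a 33.3-fold lower level (edgeR adjusted p = 0.0195). The size depended on the mutant library, from -4.32 without mutant 1 to -7.10 without mutant 2.

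The 3 polarity genes that fell belong to 2 opposing groups, the Par complex (Pard6b and Prkcz) and the Lgl family (Llgl2). Pard6b (ENSMUSG00000044641; chromosome 2, 168081004 to 168101203, plus strand) encodes the adaptor of the Par complex and was at 56.6, 36.1, 7.65 and 5.88 CPM. The controls did not overlap the mutants, and the level was 6.64-fold lower (log2 change -2.73 ± 0.26, edgeR adjusted p = 0.00877). Prkcz (ENSMUSG00000029053; chromosome 4, 155260129 to 155361361, minus strand) encodes atypical protein kinase C zeta and was at 24.8, 17.0, 5.65 and 4.02 CPM. Its groups did not overlap either (log2 change -2.07 ± 0.27, edgeR adjusted p = 0.0195), and it lies over the antisense gene Gm27200, from which its reads may not be told apart where strand was not used. Llgl2 (ENSMUSG00000020782; chromosome 11, 115824049 to 115855780, plus strand) was at 19.3, 9.24, 2.73 and 1.92 CPM. Both mutant libraries were again below both controls (log2 change -2.54 ± 0.41, edgeR adjusted p = 0.0298). With the Epcam-high barcodes kept in, Llgl2 no longer passed (edgeR adjusted p = 0.0649).

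The other polarity genes did not pass. Pard3, the scaffold to which Pard6b and the kinase bind, was at 69.6, 53.8, 66.5 and 53.9 CPM. Its libraries overlapped, those numbered 1 being the higher in both genotypes, and the log2 change was -0.0017 ± 0.21 (edgeR adjusted p = 0.999). Pard6g, a second Par6 gene, was at 19.8, 21.6, 25.8 and 29.9 CPM. Both mutants were above both controls, by a log2 change of 0.45 ± 0.24 that did not pass (edgeR adjusted p = 0.471).

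The promoters of Cldn15, Pard6b and Prkcz are shown because these 3 genes are both carried by control mesothelium and lower in Wt1-positive mutant cells. They are 250 bases up to the transcription start, from RefSeq on GRCm38.p6, read on the gene's strand from 5′ to 3′. Capitals mark CATTCC, the core of the motif bound by Tead factors, in Cldn15, and CAGGTG, the E-box bound by Snail and Zeb factors (CACCTG on the other strand), in Pard6b and Prkcz. The windows are chr5:136967619-136967868 (plus strand), chr2:168080754-168081003 (plus) and chr4:155361429-155361678 (minus).
Cldn15: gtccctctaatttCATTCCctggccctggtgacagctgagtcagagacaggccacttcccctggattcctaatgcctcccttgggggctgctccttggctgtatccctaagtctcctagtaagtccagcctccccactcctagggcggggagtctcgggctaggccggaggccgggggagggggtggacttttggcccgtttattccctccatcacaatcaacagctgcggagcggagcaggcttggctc
Pard6b: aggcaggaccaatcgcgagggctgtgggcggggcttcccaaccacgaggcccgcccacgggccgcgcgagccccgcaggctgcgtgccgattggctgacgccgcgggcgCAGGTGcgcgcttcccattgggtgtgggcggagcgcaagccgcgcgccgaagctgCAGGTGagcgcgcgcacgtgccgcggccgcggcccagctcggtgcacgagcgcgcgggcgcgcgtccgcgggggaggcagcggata
Prkcz: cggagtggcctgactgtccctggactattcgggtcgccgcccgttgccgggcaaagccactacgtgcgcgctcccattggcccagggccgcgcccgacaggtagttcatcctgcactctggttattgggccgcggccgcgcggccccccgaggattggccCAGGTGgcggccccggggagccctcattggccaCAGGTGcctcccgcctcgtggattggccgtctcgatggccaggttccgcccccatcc
The RefSeq start of Cldn15 lies 1253 bases downstream of the start of the gene in the annotation used above. The Cldn15 window thus lies within the gene as located there. Prkcz has 3 starts in the table. Of the 36 genes 25 had an entry, with 39 promoters. CACCTG on either strand was in 16 of them, or 41.0%, against 17.2% of 32851 promoters of the same length. CATTCC was in 3, or 7.69%, against 12.6%. The Myrf motif, searched as CTGGCAC and CTGGTAC, was in 0 of the 39 against 5.93%. CACCTG and CTGGCAC may share the letters CTG where they meet. These are counts of letters and not of bound sites, promoters of 1 gene overlap, and Cdh3 and Llgl2 have no entry.

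Among the adherens genes, Cdh3 (ENSMUSG00000061048; chromosome 8, 106510891 to 106557297, plus strand) encodes P-cadherin and was at 14.8, 11.1, 4.56 and 3.09 CPM. The groups did not overlap, and the level was 3.32-fold lower in mutants (log2 change -1.73 ± 0.30, edgeR adjusted p = 0.0371). Cdh3 no longer passed when the Epcam-high barcodes were kept in (edgeR adjusted p = 0.0589) or when cells were chosen by Wt1 after each had been thinned to 5000 UMIs (0.062). The catenins did not pass. Ctnnb1, which encodes beta-catenin, was at 198, 206, 191 and 214 CPM (log2 change 0.04, edgeR adjusted p = 0.975). Ctnna1, for alpha-catenin, was at 273, 175, 310 and 177 CPM (log2 change 0.14, edgeR adjusted p = 0.912). Ctnnd1, for p120-catenin, was at 139, 82.6, 126 and 79.5 CPM (log2 change -0.08, edgeR adjusted p = 0.951). For Ctnna1 and Ctnnd1 the 2 libraries numbered 1 were the high ones and those numbered 2 the low ones, so the spread within a genotype exceeded the difference between genotypes.

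**Figure D2:**
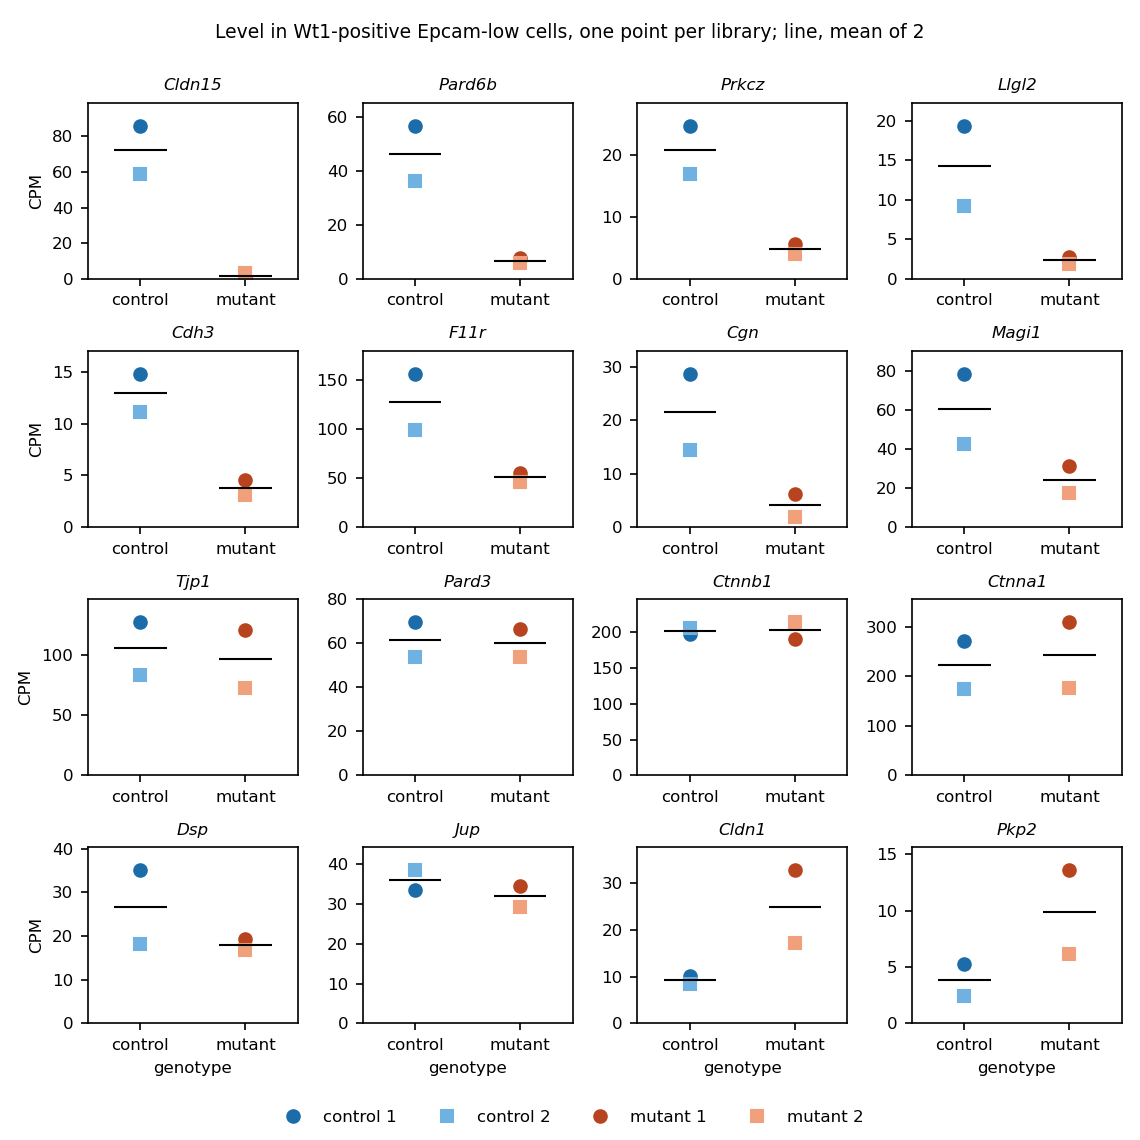
CPM of 16 junction genes in Wt1-positive Epcam-low cells, 1 point per library, with control and mutant side by side and a line at the mean of each pair. Cldn15, Pard6b, Prkcz, Llgl2 and Cdh3 are low in both mutant libraries, Ctnnb1, Pard3 and Tjp1 overlap between genotypes, and Cldn1 and Pkp2 lie higher in both mutant libraries without passing the test.

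At the tight junction, F11r (chromosome 1, 171437535 to 171464603) was at 156, 99.1, 55.3 and 46.0 CPM. Both mutants were below both controls, at a log2 change of -1.29 ± 0.26 that missed the threshold (edgeR adjusted p = 0.0576). Cgn (chromosome 3, 94760069 to 94786492) was at 28.7, 14.4, 6.29 and 1.98 CPM, with no overlap between groups and a log2 change of -2.37 ± 0.52 (edgeR adjusted p = 0.0739). Magi1 was at 78.3, 42.2, 31.0 and 17.4 CPM and also did not overlap (log2 change -1.28 ± 0.34, edgeR adjusted p = 0.115). Each of the 3 was thus lower in both mutant libraries but not past the threshold. Without the mixed barcodes F11r and Cgn passed (edgeR adjusted p = 0.0251 and 0.041), and so did Dsg2 (0.0288). The plaque genes Tjp1 and Cgnl1 had overlapping groups. Tjp1 was at 127, 83.6, 121 and 72.2 CPM (log2 change -0.10 ± 0.30, edgeR adjusted p = 0.936). Cgnl1 was at 59.8, 28.9, 60.9 and 24.4 CPM (log2 change -0.02 ± 0.44, edgeR adjusted p = 0.991). Here too the libraries numbered 1 were the high ones in both genotypes.

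Cldn1, a sealing claudin (chromosome 16, 26356642 to 26371841, minus strand), had the largest change upwards among the genes of at least 10 CPM. It was at 10.0, 8.40, 32.6 and 17.2 CPM. Both mutants lay above both controls, at a log2 change of 1.45 ± 0.31 that did not pass (edgeR adjusted p = 0.0653) but did without the mixed barcodes (0.0456). Cldn3, a sealing claudin of lung epithelium, was at 6.60, 13.9, 11.3 and 15.5 CPM, and its groups overlapped (log2 change 0.32 ± 0.43, edgeR adjusted p = 0.832).

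The desmosome genes did not pass in either direction. Dsp was at 35.0, 18.1, 19.3 and 16.8 CPM, with control 1 standing above the other 3 libraries (log2 change -0.48, edgeR adjusted p = 0.547). Jup was at 33.4, 38.3, 34.5 and 29.1 CPM, with overlapping groups (log2 change -0.17, edgeR adjusted p = 0.83). Desmoglein 2 and plakophilin 2 went in opposite directions, and these 2 genes are named after their values were seen. Dsg2 was at 28.9, 10.9, 5.83 and 3.67 CPM, below both controls in both mutants (log2 change -1.98 ± 0.46, edgeR adjusted p = 0.0812). Pkp2, an armadillo protein of desmosomes and of the heart's intercalated discs, was at 5.23, 2.40, 13.6 and 6.12 CPM, above both controls in both mutants (log2 change 1.497 ± 0.49, edgeR adjusted p = 0.192). The 5 tested genes not given so far (Cldn7, Cldn10, Dsc2, Patj and Esrp2) had log2 changes from -1.88 to -0.32, and none passed.

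**Figure D3:**
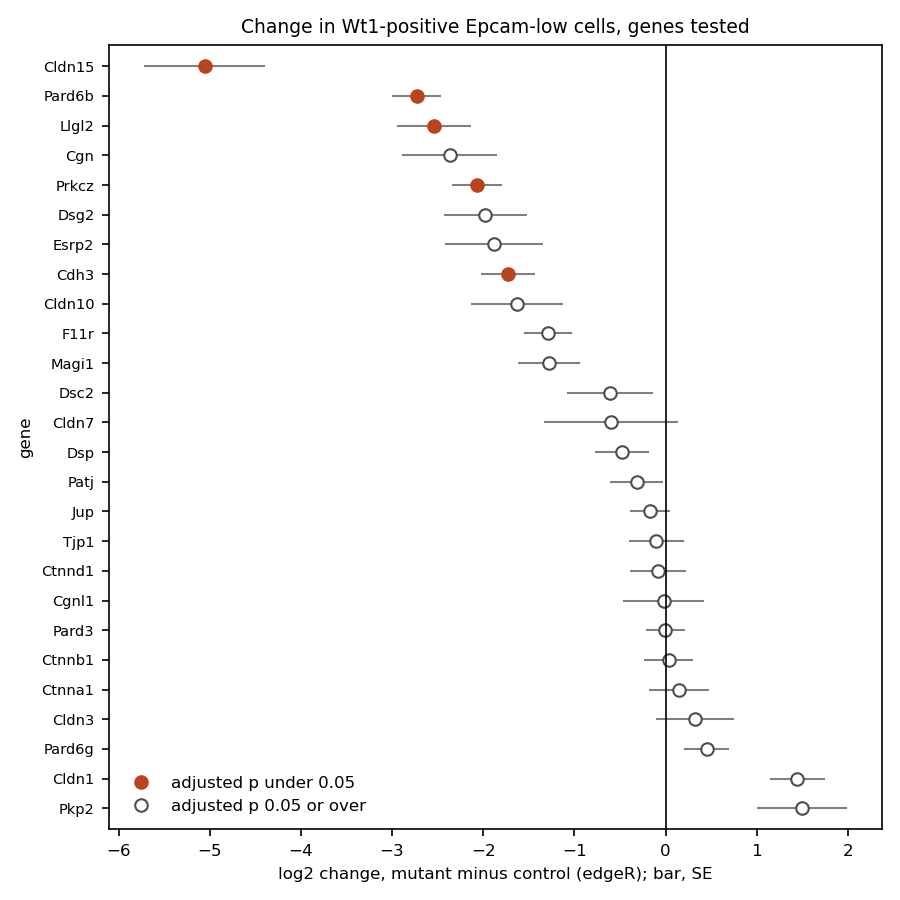
Log2 change, mutant minus control, with its standard error, for the 26 genes tested in Wt1-positive Epcam-low cells. Filled points mark the 5 genes with an edgeR adjusted p under 0.05, which lie between -5.06 (Cldn15) and -1.73 (Cdh3), and Cldn1 and Pkp2 lie farthest to the right.

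Markers of other cell types moved with these differences. In the same Wt1-positive cells the 8 smooth muscle markers summed to 287, 648, 7197 and 4514 CPM, with all 8 above both controls in both mutants. The 7 cardiomyocyte markers summed to 252, 194, 729 and 846 CPM, with 3 of 7 above and 1 below. The 10 mesothelial markers left after Wt1 summed to 4492, 2753, 404 and 330 CPM, with 9 of 10 below. The 10 epithelial markers summed to 142, 475, 179 and 130 CPM, with 2 above and 3 below. The part of these shifts in the junction genes' changes was not tested.

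Counted per cell, after thinning every cell to 5000 UMIs (122, 1799, 173 and 657 cells, with 3, 62, 2 and 1 shallower cells left out), a Cldn15 UMI was found in 36.1% of Wt1-positive cells of control 1 (exact binomial 95% interval 27.6 to 45.3%) and 24.0% of control 2 (22.0 to 26.0%). In the mutants the share was 0.578% (0.0146 to 3.18%) and 1.37% (0.628 to 2.58%), and these intervals, like the others here, cover counting error only. The intervals of the mutants lay wholly below those of the controls. Unthinned, the shares were 70.4, 50.1, 2.86 and 4.71%. Thinning came after the cells were chosen by Wt1 at full depth, with medians of 32351, 16172, 51330 and 19968.5 UMIs. The choice of cells thus still depended on depth. For Pard6b the thinned shares were 18.03, 14.5, 3.47 and 2.28%, and for Prkcz 10.7, 7.73, 0.578 and 1.52%. Cldn1 gave 3.28, 3.56, 15.6 and 7.91%, and F11r 50, 34.0, 27.2 and 18.3%. Jup gave 13.9, 17.2, 15.03 and 14.5%, and its 4 intervals overlapped. Without the mixed barcodes the shares in control 2 were 28.5% for Cldn15 (25.4 to 31.8%), 18.8% for Pard6b and 9.28% for Prkcz, still above both mutants. The median cell, mixed barcodes included, held a UMI of 5, 3, 3 and 3 of the 14 carried genes, which were chosen by their level in control cells. In Epcam-low cells without a Wt1 UMI, thinned alike, the median was 3, 3, 3 and 2.

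The background of free RNA was read in cells of other kinds, thinned alike. In the Tcf21 cluster, whose median depth was 16181 UMIs, a Cldn15 UMI was in 0 of 48 cells of control 1, which allows up to 6.25% by the limit of 3 counts of the total used here for every 0, and in 1 of 203 cells of control 2, or 0.493% (exact binomial 95% interval 0.01247 to 2.71%). It was in 0 of 29 cells of mutant 1, which allows up to 10.3%, and in 0 of 1459 of mutant 2, which allows up to 0.206%. The Wt1-positive shares of both controls and of mutant 2 thus lay above the Tcf21 cells of their library, and that of mutant 1 could not be told apart from them. Pard6b was in 3 of 203 Tcf21 cells of control 2, or 1.48% (0.305 to 4.26%), below the 14.5% of its Wt1-positive cells (12.9 to 16.2%). The cluster of endothelial and immune cells, with a median of 7897.5 UMIs, was small. In control 2 a Cldn15 UMI was in 5 of its 27 cells, or 18.5% (6.3 to 38.1%), and a Pard6b UMI in 14.8% (4.19 to 33.7%), and both intervals overlapped those of the Wt1-positive cells. The 0 of 11 and 0 of 36 cells with Cldn15 in mutants 1 and 2 are too few to set a background near the mutant shares. A UMI of Wt1, by which the cells were chosen, was read without thinning. It was in 1 of 14, 8 of 29, 1 of 11 and 2 of 62 Epcam-low cells of the endothelial and immune cluster. In the Tcf21 cluster it was in 2 of 58, 16 of 216, 3 of 33 and 61 of 1492. The part of free RNA in the choice of cells was not tested.

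**Figure D4:**
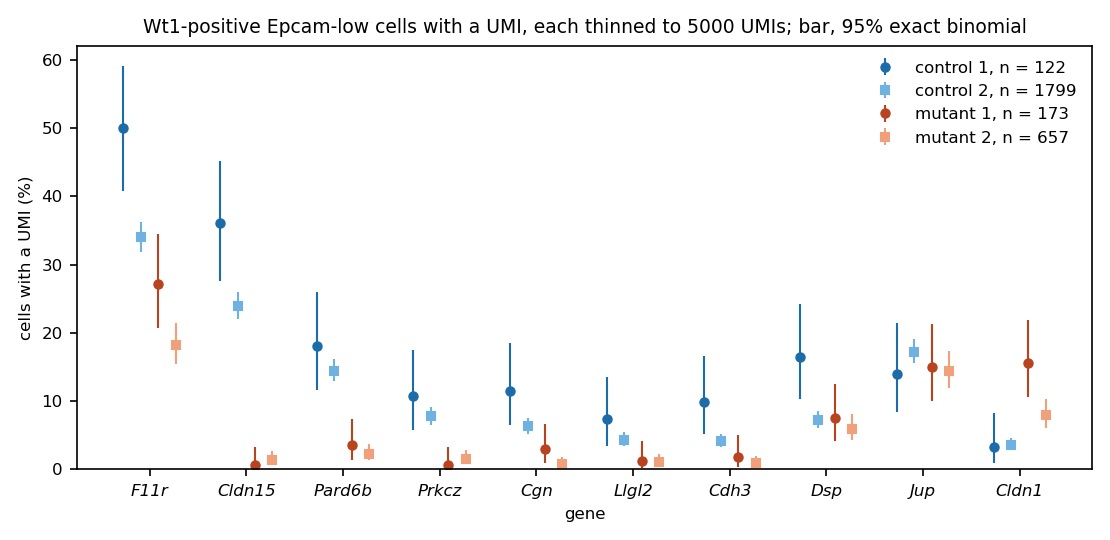
Percent of Wt1-positive Epcam-low cells with at least 1 UMI of each gene after thinning to 5000 UMIs, per library, with exact binomial 95% intervals that cover counting error only. Cldn15 falls from 36.1 and 24.0% to 0.578 and 1.37%, Jup stays between 13.9 and 17.2%, and Cldn1 is higher in the mutant libraries.

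The Wt1-positive mutant cells of the Des and Tnnt2 cluster (161 and 533 cells) held measurable RNA of several junction genes. F11r was at 56.8 and 51.2 CPM there in mutants 1 and 2, against 1.254 and 6.40 in the Tcf21 cluster of the same libraries. Dsp was at 19.7 and 19.9 CPM against 0 and 0.0785, and Cldn3 at 11.7 and 18.1 against 0 and 0.196. Jup was at 34.0 and 32.3 CPM against 10.0 and 4.83, and Magi1 at 30.6 and 19.1 against 6.27 and 4.51. Pard3 and Ctnnb1 did not follow this order, with Pard3 at 66.1 and 53.6 CPM against 80.3 and 48.4, and Ctnnb1 at 184 and 213 against 216 and 215. Pard6b, at 7.80 and 6.80 CPM, and Cldn15, at 0.585 and 3.26, were low in both mutant libraries of the cluster. Within the cluster, Wt1-negative cells (96 and 934) held less Dsp, at 8.72 and 8.87 CPM, and less Cldn3, at 6.78 and 6.26. These are descriptions of clusters made from the same cells, with no test.

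Over all Epcam-low cells (271, 3445, 393 and 4209), whatever their Wt1, 33 of the 36 genes could be tested and 2 fell, Cldn15 and Pard6b. None rose, and the background was 0.641% of 16069 genes lower and 0.0373% higher. Without control 1 only 1 gene fell, and without mutant 1 or mutant 2 it was 11 and 5, with 2 rises in the last case. The median log2 change of the 33 was -1.02, against 0.025 over all genes, and 15 of the 33 had an unadjusted p under 0.05, where 9.48% of all genes did. The median was 0.10 with the Epcam-high barcodes kept in and -0.31 without the mixed barcodes, where the same 2 genes fell and none rose. Both mutant libraries lay below both controls for 15 of the 33, where 18.5% of all genes did, and above them for 1, where 12.6% did. Cldn15 was at 49.9, 45.2, 0.552 and 1.01 CPM, with no overlap (log2 change -5.68 ± 0.41, edgeR adjusted p = 0.0067). Pard6b was at 33.4, 27.1, 5.35 and 2.24 CPM, again with both mutants below both controls (log2 change -3.002 ± 0.37, edgeR adjusted p = 0.0361). It no longer passed without control 1 (edgeR adjusted p = 0.0803) or with the Epcam-high barcodes kept in (0.116). Prkcz, Llgl2 and Cdh3 did not pass here (edgeR adjusted p = 0.083, 0.133 and 0.182). The same smooth muscle markers summed to 728, 992, 5899 and 2656 CPM in these cells, with 7 of 8 above both controls, and the 10 mesothelial markers to 2634, 2077, 306 and 133 CPM, with all 10 below.

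Epcam-high barcodes of the epithelial-like cluster held claudins and other junction genes that control mesothelial-like cells had at under 2 CPM, beside many of the carried genes. Of the 10, 58, 18 and 66 barcodes, 5, 15, 13 and 50 lay in the epithelial-like cluster led by Sftpc, the surfactant protein C gene of alveolar epithelium. There Epcam was at 283, 713, 575 and 799 CPM and Cdh1 at 242, 181, 228 and 118. The sealing claudins Cldn3 (125, 411, 422 and 440 CPM) and Cldn7 (175, 284, 245 and 247 CPM) were present in every library, and so was the Crumbs gene Crb3 (50.01, 111, 86.9 and 99.1 CPM). Cldn6 was at 50.01, 106, 78.4 and 102 CPM and Esrp1, a splicing factor of epithelia, at 41.7, 60.6, 65.3 and 48.2. Cldn15 was at 16.7, 2.39, 0 and 0 CPM. After thinning, the median cell here held a UMI of 5, 5, 5 and 3 of the 14 carried genes (5, 14, 11 and 43 cells). In the mesothelial-like cells of the controls, by whose level the 14 were chosen, the median was 5 and 4. Outside this cluster 5, 43, 5 and 16 Epcam-high barcodes remained, 30 of the 43 in control 2 from the mixed cluster. In these Cldn15 was at 43.3, 40.7, 1.20 and 0 CPM and Cldn1 at 3.61, 2.47, 28.8 and 27.2, the same order by genotype as in the Wt1-positive cells, while Cldn3 was at 50.5, 30.8, 34.8 and 46.6. A Upk3b UMI was in 6, 46, 2 and 0 of all Epcam-high barcodes and a Wt1 UMI in 6, 29, 5 and 9.

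These few barcodes held much of the RNA of some genes. Of all UMIs of Crb3, Epcam-high barcodes held 63.2, 63.1, 96.8 and 94.0%, and of Cldn7 74.3, 70.6, 95.6 and 90.3%. Llgl2, Cdh3 and Pard6b, which fell in Wt1-positive cells, had small shares in controls and larger ones in mutants. They were 7.84, 14.2, 62.9 and 46.6% for Llgl2, 1.39, 6.67, 43.6 and 42.0% for Cdh3, and 7.47, 3.37, 41.2 and 17.1% for Pard6b. A fall in Epcam-low cells raises this share by itself, so these values are no separate support for the falls. For Cldn15 the share was 3.48, 1.40, 9.09 and 0% of 402, 2564, 11 and 79 UMIs. The share was also highest in mutant 1 for genes that did not pass. Dsp was at 13.9, 20.4, 52.6 and 20.9%, Jup at 10.7, 6.77, 30.2 and 8.94%, and Ctnnb1 at 5.30, 4.83, 15.8 and 3.44%. Of all 8175944, 58045818, 20954282 and 80755665 UMIs, Epcam-low cells held 7778591, 55980545, 18130938 and 78080882. The Epcam-high part of all RNA thus also differed between libraries. In the controls 91.8 and 53.4% of Cldn15 UMIs lay in mesothelial-like cells, with 43.2% of those of control 2 in the mixed cluster, and in the mutants 81.8 and 74.7% lay in the Des and Tnnt2 cluster.

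**Figure D5:**
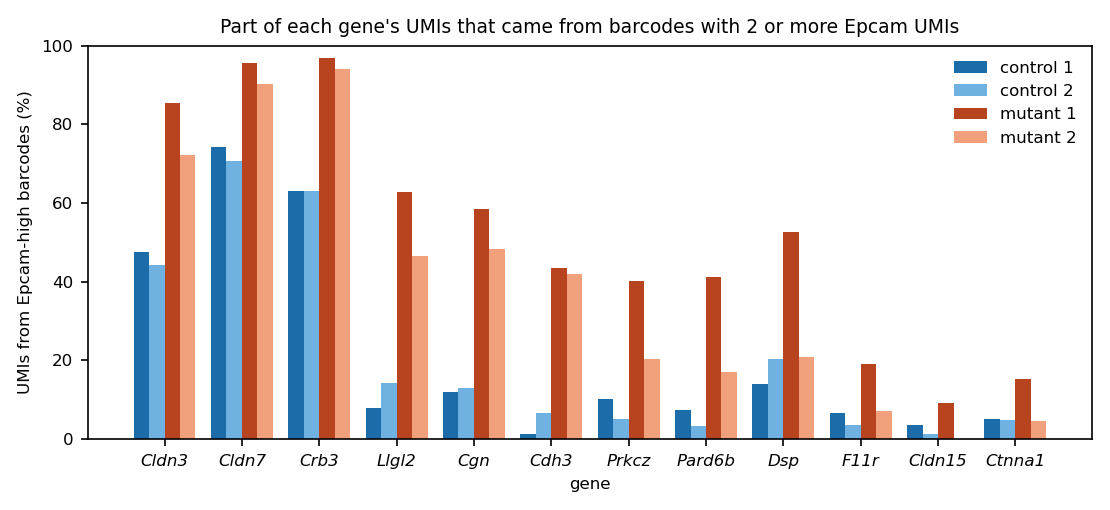
Percent of each gene's UMIs in a library that came from barcodes with at least 2 Epcam UMIs, for 12 junction genes and 4 libraries. Crb3 and Cldn7 lie above 60% in every library, Llgl2 and Cdh3 lie above 40% in both mutant libraries and under 15% in both controls, and Cldn15 stays under 10% throughout.

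Of 58 further junction and polarity genes that are not among the 36, 45 were tested in Wt1-positive cells, 3 fell and 1 rose, where 2.2 and 0.968% of all genes did, and their median log2 change was -0.20. Crb2, a Crumbs polarity gene, was at 31.8, 16.1, 0.729 and 0.874 CPM, with both mutants far below both controls (log2 change -4.78 ± 0.42, edgeR adjusted p = 0.0078). Lsr, which encodes the tricellular junction protein angulin-1, was at 43.7, 27.9, 6.92 and 9.03 CPM (log2 change -2.09 ± 0.30, edgeR adjusted p = 0.0222). Amotl2, an angiomotin family gene, was at 189, 137, 55.5 and 55.9 CPM (log2 change -1.51 ± 0.25, edgeR adjusted p = 0.0326). In each of the 3 the groups did not overlap. Lsr lies over antisense genes (Gm17077 and Gm4673), and Crb2 overlaps the protein-coding gene Dennd1a on the other strand. The gene that rose was Cldn11, a claudin of myelin and of Sertoli cells, at 0.227, 1.35, 23.2 and 16.6 CPM (log2 change 4.15 ± 0.50, edgeR adjusted p = 0.0152). In all Epcam-low cells 48 were tested and Crb2, Lsr and Cldn11 passed in the same directions, with 2 lower and 1 higher, against 0.641 and 0.0373% of all genes. Lsr and Cldn11 there lost their calls without control 1 or with the Epcam-high barcodes kept in, and Cldn11 also without the mixed barcodes and with only cells at 0 Epcam UMIs. Myrf did not pass over all Epcam-low cells (log2 change -2.17, edgeR adjusted p = 0.129).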

How the data were processed

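Single-cell 3′ libraries (10x Chromium V3) of tdTomato-positive lung cells were analysed, 2 per genotype. The deposited values were UMI counts per gene and barcode, made by the authors with Cell Ranger 6.0.2 on mm10, per the submitters' processing notes; the sources used here do not give the annotation release, the cell calling or the use of strand. Sample titles gave the groups, and locations are from GENCODE vM21. The genes and lists were chosen with earlier results of these data known.

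Barcodes with at least 1000 genes and at most 15% mitochondrial UMIs were kept. Scrublet's automatic threshold marked 9 of 8733 and did not work, so the top scores were removed at 0.8% per 1000 barcodes (1, 104, 1 and 157). Leiden clusters (scanpy 1.11.5, resolution 0.4, 3000 variable genes, 30 components) were named from fixed markers, and shares were read after thinning to 5000 UMIs.

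Counts were summed per library and tested with edgeR 4.0.16 in R 4.3.3 (quasi-likelihood, two-sided, with filterByExpr and TMM scaling; p-values adjusted over all genes by Benjamini-Hochberg), checked on simulated counts. Genes named with every library value passed at 0.05, were carried at 20 CPM, or had the 3 largest rises or falls at a mean of 10 CPM or more. Alternatives were RLE scaling, DESeq2 1.42.0, no low-count filter, the replicate block, leaving out libraries, and other choices of cells. Totals of 8175944 to 80755665 UMIs set the precision.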

Additional observations from a re-analysis of the deposited data

How the results depend on the processing

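In Wt1-positive cells Cldn15, Pard6b and Prkcz passed in the same direction under all 15 alternatives, Llgl2 under 14 and Cdh3 under 13, and over all Epcam-low cells Cldn15 passed under all 13 and Pard6b under 11. The number of calls moved more, and the causes were not tested. Over all Epcam-low cells, where 2 of the 36 fell and 103 genes fell and 6 rose, DESeq2 gave 8 with 444 and 134, no low-count filter gave 9 with 710 and 260, and keeping the Epcam-high barcodes gave 1 with 55 and 3 and a median log2 change of 0.10 in place of -1.02. Leaving out 1 library gave 1 to 11 falls and 0 to 2 rises of the 36, with 44 to 832 and 0 to 215 of all genes; the lone library left is then assumed to vary like the others. In Wt1-positive cells, where 5 fell and 0 rose and 314 genes fell and 138 rose, DESeq2 gave 9 and 1 with 623 and 336, no low-count filter 10 and 2 with 980 and 618, and leaving out the mixed barcodes 8 and 1 with 531 and 248. Keeping the Epcam-high barcodes gave 3 falls with 296 and 132, at least 2 Wt1 UMIs gave 7 falls and 1 rise with 425 and 220, Wt1 read on thinned cells gave 4 falls with 274 and 124, and leaving out 1 library gave 7 to 9 falls and 0 to 2 rises, with 438 to 662 and 258 to 370 of all genes. The median log2 change, -0.54 as reported, was -1.20 without the low-count filter, -0.44 with Epcam at 0 UMIs, -0.38 with the Epcam-high barcodes, -0.42 with at least 2 Wt1 UMIs, -0.26 with Wt1 read on thinned cells, and -1.05 to -0.65 with 1 library left out.

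The replicate numbers are shared by both genotypes, but the labels do not say that they mark a batch and there are only 2 pairs. With the replicate block 10 of the 36 fell over all Epcam-low cells (717 genes lower, 215 higher), adding F11r, Cgn, Prkcz, Magi1, Cdh3, Llgl2, Dsp and Dsg2. In Wt1-positive cells 10 fell and 2 rose (1282 genes lower, 876 higher), adding falls of F11r, Cgn, Magi1, Cldn10 and Dsg2 and rises of Pkp2 and Cldn1, with a median of -0.44.

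Sign changes of single genes were seen only among those that did not pass in either state. Pard3 in Wt1-positive cells, at a log2 change of -0.0017, became 0.0059 with RLE scaling, 0.0063 with DESeq2, 0.010 without the low-count filter, 0.035 with the Epcam-high barcodes, 0.0042 with stricter cell filters, 0.018 with doublets kept, 0.0078 with at least 2 Wt1 UMIs and 0.056 with Wt1 read on thinned cells. Ctnnb1 became -0.011 with at least 2 Wt1 UMIs, and with Wt1 read on thinned cells Cldn3 became -0.12 and Cgnl1 0.17. Over all Epcam-low cells Cldn3 became 0.48 without the mixed barcodes and 1.10 with the Epcam-high barcodes. With 1 library left out, log2 changes over all Epcam-low cells ran from -0.51 to 0.31 (Tjp1), -0.15 to 0.085 (Pard3), -0.15 to 0.28 (Ctnnb1), -0.52 to 0.15 (Ctnnd1), -0.97 to 0.80 (Cldn3), -0.52 to 0.71 (Cgnl1) and -0.25 to 0.38 (Ctnna1). In Wt1-positive cells they ran from -0.092 to 1.16 (Cldn3), -0.40 to 0.13 (Tjp1), -0.68 to 0.46 (Cgnl1), -0.11 to 0.10 (Pard3), -0.18 to 0.21 (Ctnnb1), -0.36 to 0.24 (Ctnnd1), -0.33 to 0.033 (Jup) and -0.19 to 0.40 (Ctnna1). The shares of thinned Wt1-positive cells of control 2 without the mixed barcodes, an alternative chosen after seeing the data, were 28.5% in place of 24.0% for Cldn15, 18.8% in place of 14.5% for Pard6b and 9.28% in place of 7.73% for Prkcz. Depth limits the low values: mutant Cldn15 rests on 6 and 56 UMIs.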
